A study of Mus musculus with 8 samples.

Results

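The state of Ebf1-deficient fetal liver progenitors that had received no EBF1 was described from the 2 arrays of the series labelled Empty, out of 8 arrays in all. The arrays were chosen by their label, and the arrays of cells that had received EBF1 were not read. The cells came from Ebf1-/- fetal liver on the C57Bl/6 background. They were positive for c-Kit, the receptor for stem cell factor, and had been enriched for it by magnetic separation. The feeder layer was OP9, a stromal line from mouse bone marrow on which lymphoid cells grow. The medium was supplemented with stem cell factor and Flt3 ligand, each at 10 ng/ml, and with interleukin 7 (IL-7) at 5 ng/ml. Both Empty samples were infected with the pMys-IRES-GFP retrovirus, which carries GFP and no EBF1, and GFP-positive cells were sorted 36 h after infection. Cy3-labelled cRNA from 0.2 ug of total RNA was hybridised to each array. The labels number the samples as replicates 1 and 2 and do not say whether they came from separate cultures or animals. As 1 group with 2 arrays, the design allows no test, and both values are given for each gene in place of an error.

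EBF1 is a transcription factor that B-lymphocyte development needs. It acts with the E proteins and FOXO1, switches on the B-lineage factor PAX5, and turns on genes of the pre-B cell receptor such as Cd79a, Igll1 and Vpreb1. Cells without EBF1 stop before B-lineage commitment and are known to keep the ability to form other blood lineages. Fetal liver is the main site of blood formation before birth.

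Each gene was read by its brightest probe. Values are log2 of the processed intensity after both arrays were scaled to the same 75th percentile, and each pair of values is given as Empty 1 and then Empty 2. A gene was counted as well above background if the scanner software set that flag on both arrays for at least 1 of its probes. A gene counted on 1 array had a flagged probe but none flagged on both. Of 20019 genes, 12528 (62.6%) were well above background on both arrays, 952 (4.76%) on 1 array and 6539 (32.7%) on neither. The brightest 2001 genes (10%), with a mean log2 value of 11.34 or more, are called the top class. A probe's brightness also depends on its sequence and on its place in the transcript, so a gene's place describes its probe and does not order transcript amounts between genes.

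The marker genes of the population each rest on the probe shown here, whose first 30 of 60 bases are given 5′ to 3′ in lower case as the scanner files list them. They are shown because the description of the cells turns on them. Positions are those of the mouse build mm9 in the array annotation, and no gene model of that build was used, so exons and UTRs are not assigned.
Cd34, chr1:196787392-196787451, plus strand: ccagagatgagaggattgggtgtattctct
Kit, chr5:76052287-76052346, plus strand: tgtggtcatgtacgagactgtcaccagtta
Flt3, chr5:148159595-148159654, minus strand: aagttcagttacacccgcccttggatcagc
Il7r, chr15:9435976-9436035, minus strand: atcaatcaactatgtttggatccagggaat
Gata3, chr2:9778983-9779042, minus strand: ataaactagattgctttcagttgacttaag
Cpa3, chr3:20115674-20115733, minus strand: gccaagtatatcctcaagaatacttcctaa
Mpo, chr11:87617102-87617877, plus strand: tagaggttgggagtctgccgggagaaggac
Lyz2, chr10:116714450-116714509, minus strand: cttaagttccttcattcacactaactctga
Ebf1, chr11:44818365-44818424, plus strand: caataactgcagatttttaaacaaaatcac

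All 8 genes that mark the population were well above background on both arrays. Cd34, a surface protein of blood progenitors, read 14.17 and 14.05 and was in the top class. Kit, the receptor used to enrich the cells, read 10.65 and 10.73. Flt3, the receptor for Flt3 ligand and a marker of early lymphoid and multipotent progenitors, read 10.35 and 10.29. Both receptors lay below the top class. With the mean over all probes of each gene Kit, which has 1 probe, kept its value but stood 9.12% from the top and so inside it. Averaging lowers genes with several probes, so genes with 1 probe rise in place. Il7r, the IL-7 receptor alpha chain, read 11.64 and 11.63 and was in the top class through the probe shown. Its other RefSeq probe, nearer the start of the transcript, had a mean of 8.07, and a probe for a cDNA clone had 2.86. With the mean over all its probes Il7r left the top class and stood 31.3% from the top.

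The lineage genes among the markers were also measured. Gata3, a factor of T, innate lymphoid and other cells, read 9.82 and 9.73. Cpa3, a carboxypeptidase of mast cells that early progenitors also express, read 7.06 and 7.04. Mpo, the myeloperoxidase of granulocyte and monocyte precursors, read 9.33 and 9.0. Lyz2, the lysozyme of myeloid cells, read 14.09 and 14.41 and was in the top class. In bulk RNA, fewer cells of a type and less RNA per cell cannot be told apart, so these values do not say whether 1 cell or several kinds of cell carried the transcripts.

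**Figure D1:**
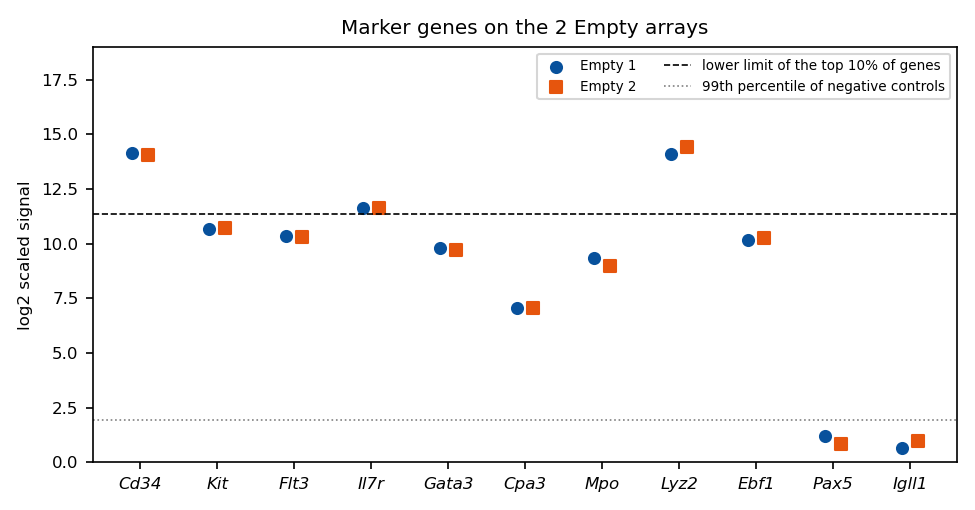
The log2 scaled signal of 11 genes is plotted on the vertical axis, with a circle for Empty 1 and a square for Empty 2. The 8 marker genes and Ebf1 lie well above the dotted line of the 99th percentile of negative controls, and Pax5 and Igll1 lie below it on both arrays.

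The knocked-out gene was read first among the B-lineage genes. The Ebf1 probe in the RefSeq transcript read 10.19 and 10.28, which placed the gene 18.2% from the top, or 39.2% with the mean over its probes. A second Ebf1 probe, for a cDNA clone, had a mean of 2.70. The labels do not say which part of the gene is deleted, so the signal of either probe does not check the genotype. No other member of the EBF family was well above background, with 3 measured.

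The lists of lineage genes held 406 genes in 23 groups, and 402 were measured. Zbtb16, Cebpe, Hbb-bs and Serpina1a were not analysed here. Of the 402 genes, 301 were well above background on both arrays and 92 were in the top class. Another 20 were well above background on 1 array and 81 on neither. A gene with several probes has more chances of a bright one. Among the 220 list members with 1 probe, 152 were well above background and 41 were in the top class, and over all genes with 1 probe these shares were 51.1% and 8.44%, with 5.11% well above background on 1 array and 43.8% on neither. At the limit of the top class, Il2rb (11.35) and Cdkn1a (11.35) were the last members inside by mean log2, and Cebpb (11.27) and Fli1 (11.23) the first outside.

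**Figure D2:**
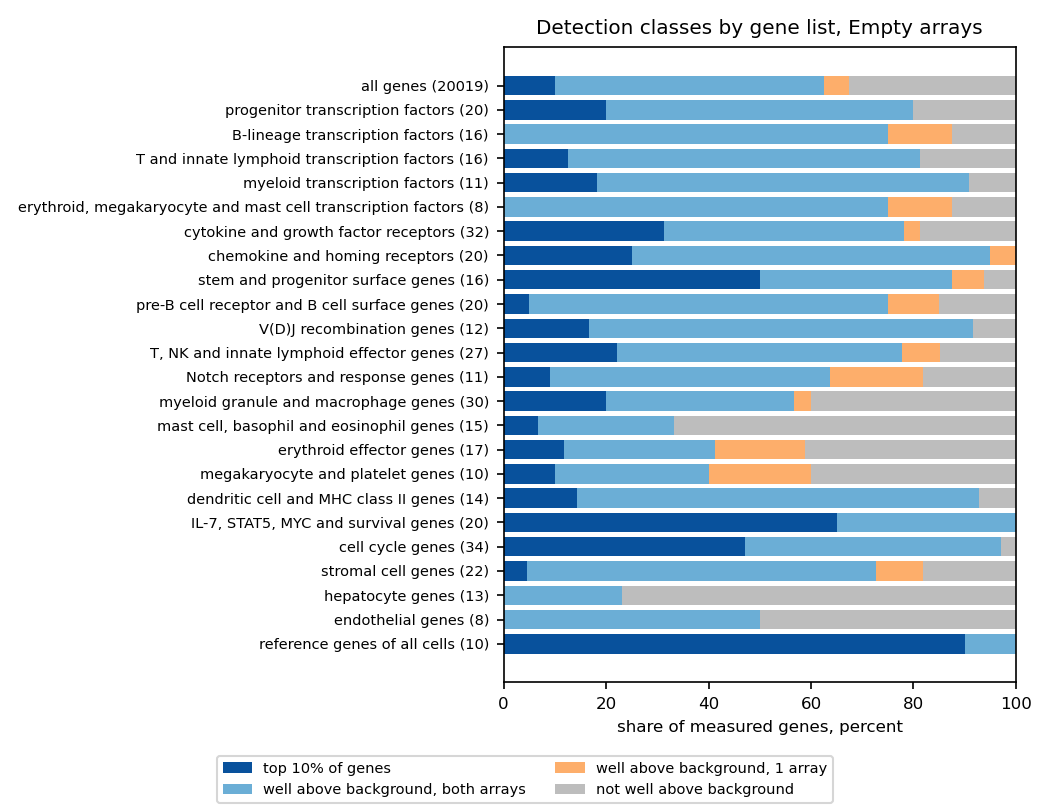
Each bar gives, for a gene list, the percent of its measured genes in the top 10%, well above background on both arrays, on 1 array or on neither, with the number measured in parentheses. All IL-7, STAT5, MYC and survival genes were well above background, whereas 10 of 15 mast cell, basophil and eosinophil genes and 10 of 13 hepatocyte genes were not on either array.

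Among 20 transcription factors of early progenitors, 16 were well above background and 4 of these were in the top class. Mycn, a MYC family factor that drives growth, read 13.05 and 12.84. The homeobox factors Hoxa7 (12.27 and 12.15) and Hoxa9 (11.45 and 11.39), known from stem and progenitor cells, were in the top class too, as was Bcl11a (11.88 and 11.90), a zinc finger factor that lymphoid progenitors need. The values of these 4 genes differed little between the arrays.

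Below them stood Fli1 (11.34 and 11.13), an ETS factor of blood and endothelial cells, and Lyl1 (11.27 and 11.18), a basic helix-loop-helix factor of early progenitors. Myb, a factor that progenitor growth needs, read 10.90 and 10.79. Hhex, a homeobox factor of early lymphoid cells, read 10.79 and 10.67. Runx1, which the first blood stem cells need, read 9.15 and 9.22, and Hoxa10 read 9.12 and 9.10. Mecom, Gata2, Hlf and Ikzf2 were not well above background on either array, with Ikzf2 covered by 5 probes. Gata2, Mecom and Hlf are known as regulators of stem cells.

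The Hox genes were counted by cluster. In the Hoxa cluster 9 of 11 genes were well above background, and in the others 3 of 10 Hoxb, 1 of 8 Hoxc and 1 of 9 Hoxd genes were. Of all these, Hoxa7 and Hoxa9 were in the top class. The Hoxb genes were Hoxb6 (7.44 and 7.14), Hoxb4 (5.11 and 5.11) and Hoxb3 (5.00 and 4.93). Hoxc4 (5.18 and 5.44) and Hoxd9 (6.54 and 6.5) were the genes of the other clusters.

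None of the 16 B-lineage regulators was in the top class. With the mean over all probes of a gene, where genes with 1 probe rise in place, 2 were. Among the 16, 12 (75%) were well above background on both arrays, against 62.6% of all genes. Another 2 were on 1 array and 2 on neither. Spib, an ETS factor of B cells and plasmacytoid dendritic cells, read 10.64 and 10.75. Sox4, a factor that B-cell progenitors need, read 10.47 and 10.59. Tcf3, which encodes the E proteins E12 and E47, read 10.12 and 10.09.

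Other factors of this list were well above background but outside the top class. Bach2, a repressor that favours the lymphoid programme, read 10.03 and 9.98. Tcf4, another E protein gene, read 9.54 and 9.73. Foxo1, which acts with EBF1 and the E proteins, read 9.02 and 9.03. Pax5, the factor of B-lineage commitment, read 1.2 and 0.84 and was not well above background on either array, nor was Zfp521. Pou2af1, a B-cell coactivator, and Zfp423 were well above background on 1 array. None of 9 PAX family genes was well above background on both arrays.

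The list of B cell surface and pre-B cell receptor genes had 20 measured members, of which 15 were well above background. Lyn, a kinase of the SRC family, was the sole member in the top class at 11.72 and 11.70, against 3 members with the mean over all probes of a gene. Syk, a kinase downstream of antigen and Fc receptors, read 10.72 and 10.73. Cd72 (10.70 and 10.75), an inhibitory receptor, and Cd24a (10.67 and 10.52), a surface glycoprotein, were well above background. Cd37 (10.12 and 10.06) is a tetraspanin, and Btk (10.08 and 9.99) is the kinase of B-cell receptor signalling.

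The genes that form the pre-B cell receptor were partly at background. Cd79b, one of its signalling chains, read 9.49 and 9.65, but Cd79a, its partner chain, read 2.10 and 2.78 and was well above background on 1 array. Igll1, the lambda5 surrogate light chain, read 0.68 and 0.96 and was not well above background on either array. Vpreb1 (6.00 and 5.62) and Vpreb2 (3.21 and 3.76), its surrogate partners, were well above background on both, but near-identical sequences of these paralogs make the split between them uncertain. Cr2 was well above background on 1 array, and Ms4a1, which encodes CD20, and Fcer2a on neither.

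Vpreb3 was the list member with the largest gap between the arrays. It read 5.78 on Empty 1 and 3.33 on Empty 2, and the other Vpreb3 probe had a mean of 3.38.

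V(D)J recombination is the cutting and joining of antigen receptor gene segments. Of 12 genes, 11 were well above background. The DNA-bending proteins Hmgb2 (13.63 and 13.50) and Hmgb1 (13.212 and 12.996), which act in all cells, were in the top class. The end-joining genes Xrcc6 (9.06 and 9.03), Xrcc5 (9.0 and 8.97), Prkdc (8.54 and 8.44) and Nhej1 (8.30 and 8.29) followed. The lymphoid-specific genes were dim. Rag1, one of the recombinase subunits, read 5.20 on both arrays, and Dntt, which adds untemplated bases at joints, read 4.30 and 3.94. Rag2, the other recombinase subunit, read 1.89 and 1.64 and was not well above background.

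**Figure D3:**
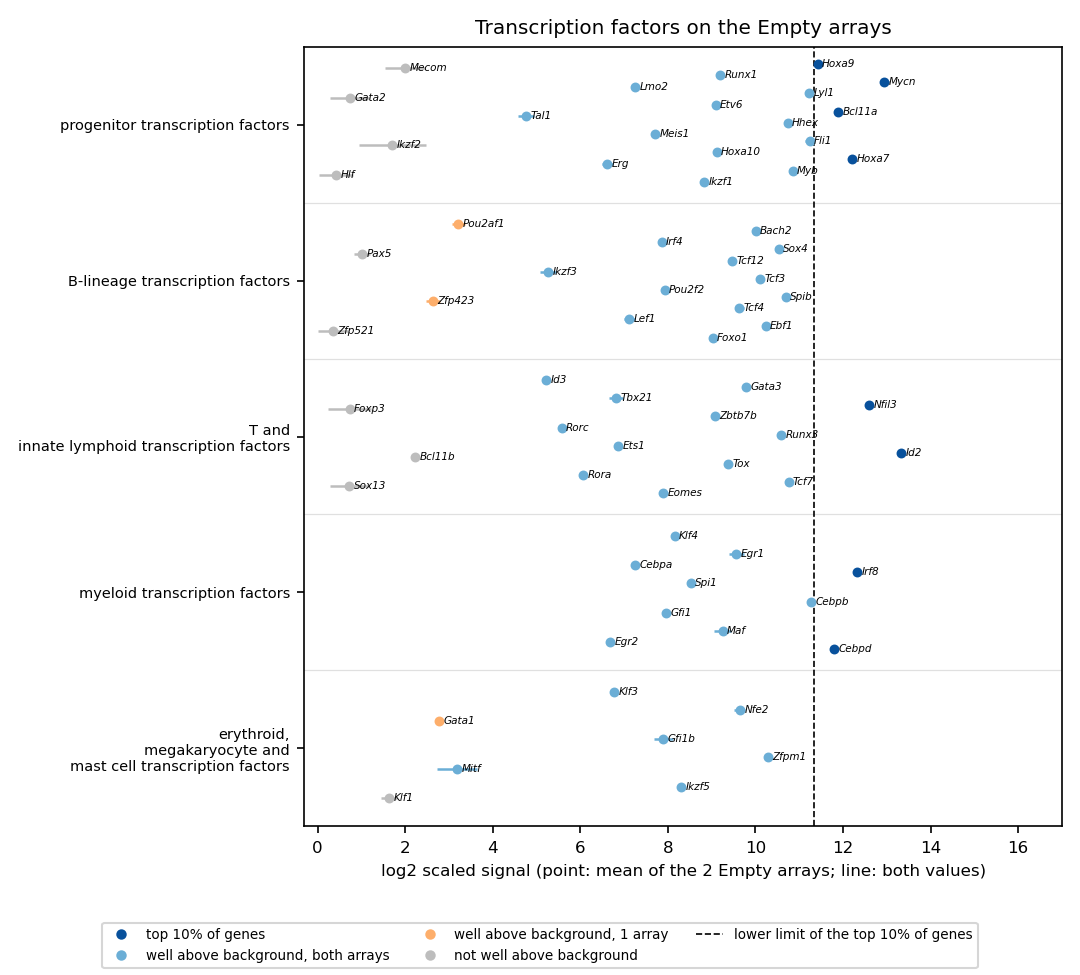
Each point is a transcription factor at its mean log2 signal over both Empty arrays, with a short line for the 2 values, coloured by detection class and grouped by lineage, with some members not shown. Id2 and Mycn are the brightest factors, whereas Pax5, Bcl11b, Gata2 and Klf1 are not well above background.

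Factors of T and innate lymphoid cells were well above background in 13 of 16 cases, with 2 in the top class. Id2, an inhibitor of the E proteins that innate lymphoid cells need, read 13.28 and 13.39. Nfil3, a basic leucine zipper factor of natural killer (NK) and innate lymphoid cells, read 12.62 and 12.57. Tcf7, which encodes TCF1, a factor that Notch signalling induces in early T cells, read 10.76 and 10.75. Runx3 (10.502 and 10.67) is a factor of cytotoxic T and NK cells.

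Tox (9.34 and 9.42) and Zbtb7b (9.03 and 9.10) are regulators of T-cell development, and Eomes, a T-box factor of NK and cytotoxic T cells, read 7.99 and 7.80. Bcl11b, the factor of T-lineage commitment, read 2.22 and 2.23 and was not well above background on either array. Foxp3 and Sox13 were not well above background either. The early T and innate lymphoid factors Tcf7, Gata3 and Tox were therefore all well above background on arrays where the commitment factor Bcl11b was not.

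Effector genes of T, NK and innate lymphoid cells numbered 27, of which 21 were well above background and 6 in the top class. Klrd1, the CD94 chain of NK receptors, read 14.35 and 14.30. Cd7, a surface protein of T, NK and early lymphoid cells, read 14.22 and 13.63. Thy1, a surface glycoprotein of T cells and some progenitors, read 13.84 and 13.78. Nkg7, a granule membrane protein of cytotoxic cells, read 13.21 and 13.15.

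The T-cell receptor complex was unevenly bright. Cd3g (11.68 and 11.54) and the SRC-family kinase gene Lck (11.39 and 11.33) were in the top class, and Cd3d read 10.498 and 10.23. Cd3e, another chain of the complex, read 4.47 and 4.93, and the coreceptor gene Cd4 read 3.68 and 3.43. Cd2 (10.73 and 10.76), an adhesion receptor, and the granzyme gene Gzma (10.73 and 10.58) were well above background, as were the adaptor gene Lat (8.62 and 8.49) and the NK receptor gene Klrb1c (8.54 and 8.40). Ptcra, the pre-T cell receptor alpha chain, and Il22 were well above background on 1 array. Gzmb, Cd8a, Areg and Il5 were not on either array.

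Notch signalling drives T-cell fate. Of 11 Notch genes 7 (63.6%) were well above background, near the 62.6% of all genes. Notch2 was in the top class at 11.53 and 11.37, Rbpj, the DNA-binding partner of Notch, read 9.18 and 9.02, and Notch1 read 7.04 and 7.02. The response genes Hes1 and Nrarp were well above background on 1 array, and Hey1 and Heyl on neither. Hes5, a gene of the same family as Hes1, read 5.19 and 5.12. Dtx1 (7.54 and 7.40), which Notch induces in lymphoid cells, was well above background on both.

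Myeloid regulators were well above background in 10 of 11 cases. Irf8, an interferon regulatory factor of monocytes, dendritic cells and B cells, read 12.27 and 12.39, and Cebpd, a C/EBP factor, read 11.71 and 11.86. Both were in the top class, and Cebpb (11.26 and 11.28) stood at its edge. Spi1, which encodes PU.1, a factor of myeloid and lymphoid progenitors, read 8.56 and 8.48.

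Cebpa, which drives granulocyte and monocyte development, read 7.24 and 7.25. Gfi1 (8.07 and 7.86) is a repressor of granulocyte and lymphoid progenitors, and Klf4 (8.15 and 8.16) a factor of monocytes. Egr1 (9.39 and 9.73) and Maf (9.44 and 9.05) were well above background.

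Of 30 myeloid granule and macrophage genes, 17 were well above background, 6 of these in the top class, 1 on 1 array and 12 on neither. The share well above background, 56.7%, is near the 62.6% of all genes. Besides Lyz2, the top class held Ly6c1 (13.01 and 13.32), Adgre1 (12.06 and 12.16), Fcgr3 (11.94 and 12.02), Lyz1 (11.64 and 11.91) and Marco (11.80 and 11.50). Adgre1 encodes the macrophage protein F4/80, Fcgr3 an Fc receptor and Marco a scavenger receptor. Lyz1 and Lyz2 are near copies, as are Ly6c1 and its neighbour, so their signals may be shared.

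Genes of the earliest granules were divided. Prtn3, the proteinase 3 gene, read 9.13 and 9.16, close to Mpo. Elane, the neutrophil elastase gene, read 0.79 and 0.53, and Ctsg, the cathepsin G gene, was well above background on 1 array. The later neutrophil granule genes Ltf, Camp, Ngp and Mmp9 were not well above background on either array. Nor were S100a8, S100a9, Ms4a3 and Fcnb, other genes of granulocytes or their precursors. The same held for C1qa, C1qc and Siglec1, genes of mature macrophages, while C1qb read 4.88 and 4.85 and was well above background. Mmp8 (7.04 and 7.06) and Lcn2 (4.87 and 5.01), also of later granules, were well above background on both arrays. Of the other members well above background, Ncf1 (10.62 and 10.70), a subunit of the phagocyte oxidase, and Itgam (9.46 and 9.63), the CD11b integrin, were the brightest.

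Mast cell, basophil and eosinophil genes were mostly dark, with 5 of 15 well above background. Fcer1g, the common gamma chain of Fc receptors, read 13.71 and 13.80, but myeloid and NK cells share that gene. Hdc, the histamine-forming enzyme, read 8.27 and 8.23, and Cpa3 was given above. Prg2 (5.59 and 5.77) and Prg3 (4.10 and 4.37), eosinophil granule proteins, were dim. The IgE receptor genes Fcer1a and Ms4a2, the mast cell proteases Mcpt1, Mcpt2, Mcpt4, Cma1, Tpsb2 and Tpsab1, the basophil protease Mcpt8 and the eosinophil peroxidase Epx were not well above background on either array.

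Erythroid, megakaryocyte and mast cell factors numbered 8. Zfpm1, the GATA partner FOG1, read 10.34 and 10.21, Nfe2 read 9.77 and 9.52 and Gfi1b read 8.11 and 7.67. Gata1, the main factor of these lineages, was well above background on 1 array (2.74 and 2.81), and Klf1, the erythroid factor, on neither.

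Of 17 erythroid effector genes, 7 were well above background. Hbb-bt, an adult beta globin gene, read 13.10 and 13.25, and all 4 of its probes had means of at least 10.0, but near-identical globin genes cannot be told apart by these probes. Tfrc, the transferrin receptor that all growing cells use, read 11.41 and 11.40. The alpha globin gene Hba-a1 read 3.66 and 4.19 and was well above background on 1 array. Hemgn (8.79 and 8.53), a nuclear protein of blood progenitors, and Car2 (7.67 and 7.76), a carbonic anhydrase, were well above background. Alas2, Epb42, Sptb and Ank1, genes of maturing red cells, were not well above background on either array, nor was the globin gene Hba-x.

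Of 10 megakaryocyte and platelet genes, 4 were well above background. Itgb3, an integrin shared with other blood cells, read 11.52 and 11.54, and Itga2b, its platelet partner, read 6.65 and 6.81. The platelet genes Pf4, Ppbp, Gp5 and Gp1ba were not well above background on either array.

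**Figure D4:**
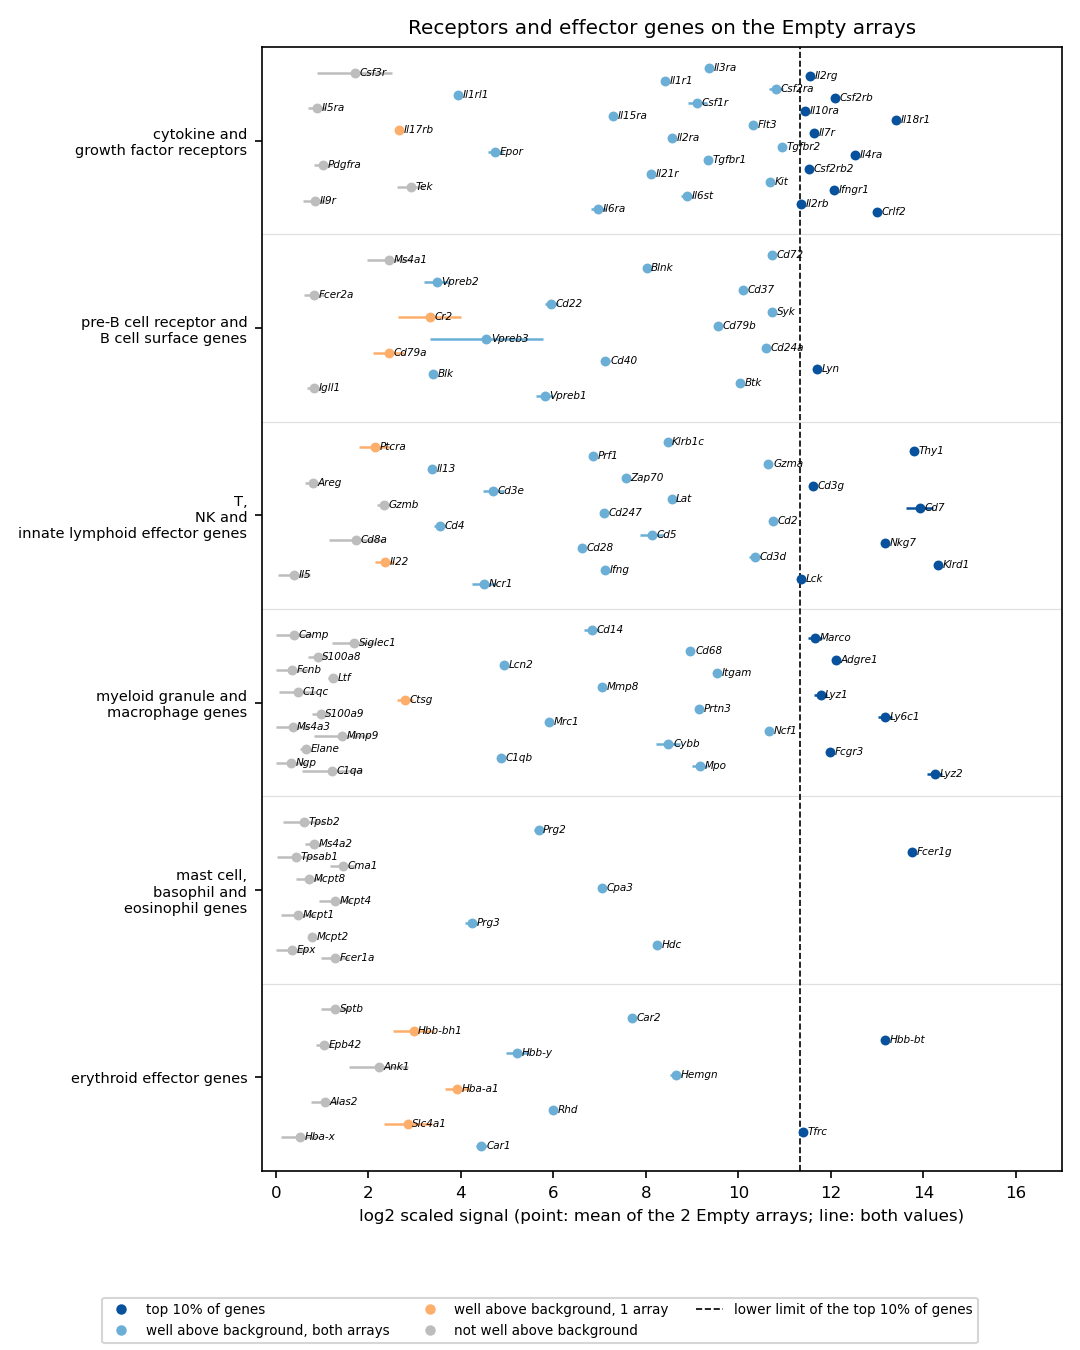
Each point is a gene at its mean log2 signal over both Empty arrays, with a short line for the 2 values, coloured by detection class, for receptors and for the effector genes of 5 lineages, with some members not shown. Klrd1, Lyz2 and Fcer1g are among the brightest, and most genes of mast cells, late granules and red cells lie at the left.

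Cytokine and growth factor receptors set which signals a cell can read. Of 32 measured, 25 were well above background and 10 in the top class. Il18r1, a receptor chain for interleukin 18, read 13.47 and 13.36. Crlf2, the receptor for thymic stromal lymphopoietin, which pairs with the IL-7 receptor alpha chain, read 12.93 and 13.09. Il4ra, which binds interleukins 4 and 13, read 12.54 and 12.51.

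The IL-7 receptor was present with its partner: Il2rg, the common gamma chain, read 11.47 and 11.63 beside Il7r. Csf2rb (12.02 and 12.15) encodes the beta chain shared by interleukin 3 and GM-CSF signals. Its near copy Csf2rb2 (11.45 and 11.62) encodes a beta chain for interleukin 3, and the signals of these near copies may be shared. Ifngr1 (12.09 and 12.05) is the interferon gamma receptor, Il10ra (11.47 and 11.43) the interleukin 10 receptor and Il2rb (11.38 and 11.32) the shared receptor of interleukins 2 and 15. Csf2ra, which binds GM-CSF, read 10.67 and 10.96, and Il3ra, which binds interleukin 3, read 9.39 and 9.36. Csf1r, the macrophage colony-stimulating factor receptor, read 8.91 and 9.32.

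Not all receptors of the list were well above background on both arrays. Csf3r, the granulocyte colony-stimulating factor receptor, Il5ra, Il9r, Tek and Pdgfra were not well above background on either array. Il17rb was on 1 array. Tek was the brightest of all members not well above background on either array, with a mean of 2.92.

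Of 20 genes for chemokine and homing receptors, 19 were well above background. Itgb7, an integrin of gut homing, read 14.63 and 14.35, and its partner Itga4 read 13.77 and 13.89. Selplg, the ligand of selectins, read 13.84 and 13.61. Ccr2 (12.38 and 12.56) is a receptor of monocytes and Ccr9 (12.09 and 11.98) a receptor of thymus-seeding progenitors and gut homing cells. Cxcr4, which binds the stromal chemokine CXCL12, read 9.36 and 9.17. Ccr3 was well above background on 1 array.

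Surface genes of stem and progenitor cells were in the top class in 8 of 16 cases (50%), against 10% of all genes. Cd52 (15.67 and 15.53), a small glycoprotein of lymphocytes, and Ly6a, the stem cell antigen Sca-1 (15.48 and 15.49), were the brightest. Ly6d, which marks lymphoid progenitors on the B-cell path, read 14.69 and 14.58. Ptprc, the CD45 phosphatase of blood cells, read 13.74 and 13.70. Cd93 (12.76 and 12.74), Cd48 (12.26 and 12.36) and Spn, the CD43 gene (12.13 and 12.05), were in the top class too. Slamf1 (3.69 and 4.18), Cd38 (3.36 and 3.90) and Esam (3.75 and 3.27) were well above background but dim. Procr, a marker of stem cells, was well above background on 1 array, and Prom1 on neither.

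Genes of antigen presentation were bright. Cd74, the invariant chain of MHC class II, read 14.53 and 14.52, and Bst2, a surface protein of plasmacytoid dendritic cells and interferon-treated cells, read 14.44 and 14.57. H2-DMa (11.09 and 11.20), H2-Ab1 (10.90 and 11.09), H2-Eb1 (10.10 and 10.16) and H2-Aa (10.14 and 10.10) belong to the class II pathway, and Itgax, the CD11c integrin, read 10.62 and 10.67. Itgax rests on 1 of its 2 probes, and the other had a mean of 3.44. Of 14 genes of this list, 13 (92.9%) were well above background, against 62.6% of all genes. The dendritic cell genes Xcr1 (5.41 and 5.24), Zbtb46 (5.01 and 5.01) and Siglech (3.66 and 3.62) were among them but dim. Clec9a, a receptor of one dendritic cell subset, was not on either array.

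The list of IL-7, STAT5, MYC and survival genes was well above background in 20 of 20 cases, with 13 in the top class. IL-7 signals through JAK1 and JAK3 to STAT5. Bcl2, a survival protein, read 13.38 and 13.23, Mcl1, another one, 12.98 and 13.16, and Pim2, a survival kinase, 12.91 and 12.87. Jak1 read 12.27 and 12.12 and Jak3 read 11.37 and 11.51. The feedback inhibitors Socs1 (12.37 and 12.34), Socs3 (11.91 and 11.92) and Socs2 (11.66 and 11.76) were bright. Stat5b (11.07 and 10.94) and Stat5a (9.19 and 9.24) lay below the top class, as did Cish (10.92 and 11.08), a target of STAT5.

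Cell cycle genes were nearly all above background, 33 of 34, with 16 in the top class. Mcm6, a subunit of the replicative helicase, read 15.20 and 14.94, Pcna, the replication clamp, 13.59 and 13.53, and Mki67, a protein of dividing cells, 12.84 and 12.77. The G1 cyclin genes Ccnd2 (13.35 and 13.27) and Ccnd3 (12.20 and 12.36) and their kinases Cdk6 (12.78 and 12.68) and Cdk4 (12.26 and 12.26) were in the top class. Cdkn2a, the inhibitor gene of INK4A and ARF, read 1.66 and 1.55 and was not well above background. Cdkn1a, the p21 inhibitor gene, read 11.33 and 11.36.

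Markers of other cells that the culture or the tissue could hold were read on the same arrays. Stromal markers were partly measured: 7 of 8 markers of a stromal feeder were well above background, with Postn not, and their summed linear signal was 857 on Empty 1 and 809 on Empty 2. In the wider stromal list 16 of 22 genes (72.7%) were well above background, against 62.6% of all genes. Among the 16, 11 were higher on Empty 1, and the median difference was 0.28 (log2). Over all genes well above background with a mean log2 under 8, 56.8% were higher on Empty 1, with a median difference of 0.03. When most probes of a gene had to carry the flag on both arrays, 9 of the 22 were well above background. The count of all genes under this rule is given below with the other processing settings. The brightest gene of the list was Acta2, the smooth muscle actin, at 13.15 and 13.27, but through 1 of its 5 probes. Pdgfrb (8.67 and 8.77) followed. The part of these transcripts in the results was not tested.

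The Acta2 value rests on 1 of 5 probes. Its first RefSeq probe, 335 bases into the transcript, was bright, and the others had means between 0.45 and 4.23. Whether the bright probe also reads RNA of other actin genes was not tested. The bright probe and the next one along the transcript are shown by their first 30 bases. With the mean over its probes Acta2 fell from 2.75% to 52.0% from the top.
Acta2, bright probe, chr19:34322995-34326249, minus strand: atcatcaccaactgggacgacatggaaaag
Acta2, next probe, chr19:34316060-34316119, minus strand: gttttgtggatcagcgcctccagttccttt

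Hepatocyte genes were mostly dark. Alb and Afp, the albumin and alpha-fetoprotein genes of fetal hepatocytes, were not well above background on either array, and 3 of 13 hepatocyte genes were. Ahsg, which encodes fetuin A, read 9.10 and 9.13, Trf, the transferrin gene, 6.19 and 6.05, and Krt8 5.01 and 4.87. Of 8 endothelial genes, 4 (50%) were well above background, against 62.6% of all genes. They were Egfl7 (10.69 and 10.59), Pecam1 (8.88 and 8.89), Kdr (6.14 and 6.61) and Flt1 (3.70 and 3.34). Pecam1 is also found on blood cells. When most probes of a gene had to carry the flag on both arrays, 1 of the 8 was. Cdh5, the endothelial cadherin, was not well above background on either array.

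The signal varied with the place of the probe in the transcript. Of 4295 RefSeq transcripts with at least 2 probes well above background, the probe nearest the 3′ end was brighter than the one nearest the start in 3038 (70.7%), by a median of 1.17 on the log2 scale. For transcripts whose first and last probes were at least 1000 bases apart, this held in 1764 of 2497 (70.6%), with a median difference of 1.72. Among the 182 list members with several probes, 81 had probes more than 3 log2 units apart. With the mean over all probes of a gene in place of its brightest probe, 74 of the 92 list members in the top class stayed there. The ones that left were Csf2rb, Il7r, Itga4, Ptprc, Spn, Notch2, Adgre1, Itgb3, Ptpn11, Bcl2l11, Jak1, Stat3, Socs2, Mcm4, Cdk6, Tyms, Ccne1 and Acta2. Of these, Mcm4 was no longer counted as well above background, because in this setting most probes of a gene had to carry the flag.

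**Figure D5:**
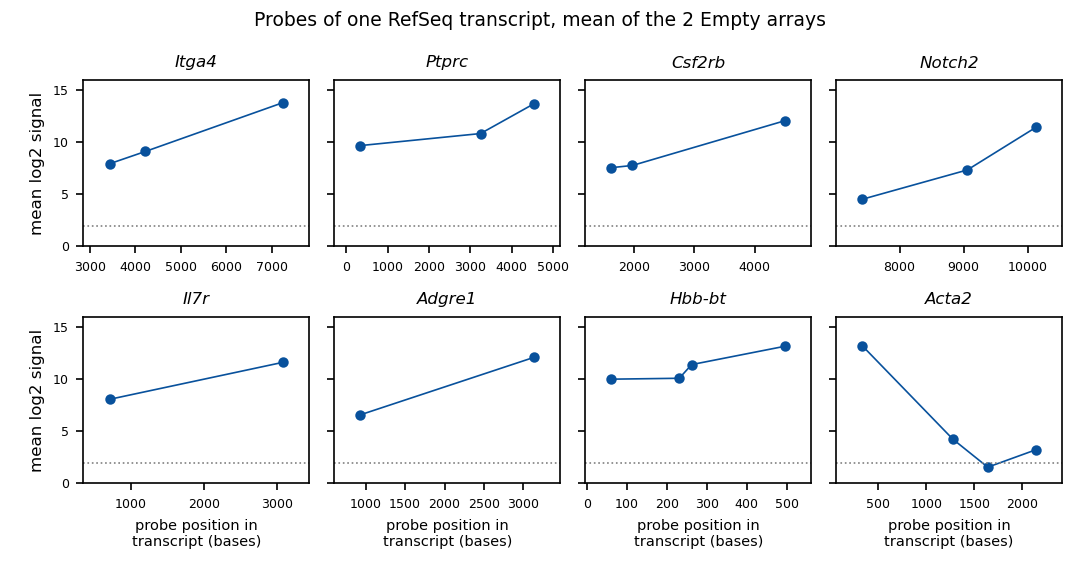
The mean log2 signal over both Empty arrays is plotted for each probe of 8 genes against its position in the RefSeq transcript, with the dotted line at the 99th percentile of negative controls. In 7 genes the probe farthest along is the brightest, and Acta2 is the exception, with its first probe at 13.21 and the others at or below 4.23.

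The 2 arrays were close to each other. Over the 12528 genes well above background, the SD of the difference between arrays was 0.234 (log2), its median was 0.03, and 84.6% of genes agreed within 0.25. For 137 probes spotted 10 times, the SD of the array difference was 0.176, and the SD that spot noise within an array alone would give was 0.054. These values do not show whether the samples were separate cultures, since each was also labelled and hybridised on its own. Among them, 84 genes differed by more than 1 log2 unit, 79 of them higher on Empty 1. The filter left out genes low on Empty 1, where the dimmest probe that passed was brighter than on Empty 2. The part of this filter in the split was not tested. The largest gaps were Rnf217, at 7.24 and 2.54, and Vpreb3, given above. In the other direction, Syt10 read 5.86 and 7.22, and Grn, which encodes progranulin, a secreted growth factor, read 14.12 and 15.14. The arrays lay on different slides, so a difference between samples and one between slides cannot be told apart. The share of probes well above background was 55.1% on Empty 1 and 59.6% on Empty 2, no spot was saturated, and the dimmest probe that passed read 3.0 and 2.14 respectively.

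Outside the lists, the 20 brightest genes were mainly ribosomal, with 13 genes of ribosomal proteins. Rps18 led at 18.05 and 17.75. Ptprz1, a receptor phosphatase gene of the nervous system, read 18.08 and 17.63, but the dimmest of its 4 probes had a mean of 0.33. Aldoa, an aldolase of glycolysis, read 17.62 and 17.51, and S100a4, a calcium-binding protein, 17.27 and 17.11.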

How the data were processed

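Each sample was hybridised to a one-colour Agilent array. Per the submitters' processing notes, images were read by version 10.5.1.1 of Agilent Feature Extraction. The deposited scanner files hold linear intensities, among them a processed signal from which background had been removed, and other columns with flags for spots well above background, saturated or outlying, per the file headers. The annotation refers to mm9, per the file headers. The deposited value table holds log2 values whose scale and direction followed the scanner values (r = 0.979 and 0.971 across probes) and whose centring is unknown (medians 4.93 and 4.91). It served as an alternative, and 6 other columns of it were not used.

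Both arrays (43379 spots each, controls aside) were brought to a common 75th percentile of the processed intensity. Values under 1 were set to 1 before the log2 step. Outlying spots were dropped and repeated spots of a probe averaged. Of 41174 probes, 27808 were named by accession, 5509 by symbol and 379 by older symbol from a table of RefSeq genes, and 7478 were not matched. Background correction with normexp in limma 3.58.1 (R 4.3.3, offset 50) was an alternative. Calculations used Python 3.11.15 and were tested on simulated data.

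The lists and their members were chosen with earlier results of these data known. Genes were named as follows: in each list the members of the top class, up to 6 brightest of the others well above background, and those well above background on 1 array or neither, outside the lists the 20 brightest and the 10 with the largest difference each way, and members of gene families where 6 or fewer were well above background. Foxo1, Csf1r, C1qb, Mmp8, Lcn2, Cd3e, Cd4, Rag1, Dntt, Vpreb1, Vpreb2, Xcr1, Zbtb46 and Siglech, and, in larger families, the named chemokines and interleukins, Irf1, Stat2, Klf2, Pax8, Wnt9a, Psmb8, Psmb9 and Psmb10, were singled out after their values were seen. Some list members enter the counts but are not reported here by name.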

Additional observations from a re-analysis of the deposited data

How the results depend on the processing

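Counts of genes well above background ranged from 11008 with the mean over all probes to 14963 with the positive and significant flag, against 12528. In the setting with the mean, a gene counted only if most of its probes carried the flag on both arrays. The SD of the difference between arrays was 0.429 with the positive and significant flag and 0.414 with genes well above background on at least 1 array, against 0.234; both alternatives admit dimmer genes. By construction, a top class of 5% held 1000 genes and 54 list members, and one of 20% held 4003 genes and 139 list members, against 2001 and 92. Without replicate 1 or replicate 2, between 12645 and 13368 genes and between 304 and 319 list members were well above background, and 91 to 92 list members were in the top class. The choice of probe mattered for named genes: with the mean over all probes, 71.9% of the top class was shared, and 74 of 92 list members stayed in it; the value table shared 94.4% and normexp 94.9%. Of 598 list counts under alternatives, 568 stayed within 1.5 times and 30 moved, 10 of these with the top 5%, 8 with the top 20% and 8 with the mean over probes. No paired analysis was possible because there was only 1 group. Genes near background have only a bound on their level, and 2 arrays limit the precision of every value.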

Other observations

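Families outside the lists added other signals. Ccl5, a chemokine of T and NK cells, read 15.76 and 15.53 and was in the top class, as was Ccl9 (11.54 and 11.64). Of 31 CC and CXC chemokines, 15 were well above background, among them Ccl6 (10.42 and 10.91), Ccl3 (10.37 and 10.62), Ccl4 (9.82 and 10.09) and Cxcl10 (9.95 and 10.34), an interferon-induced chemokine. Cxcl9 (0.92 and 1.38) and Cxcl11 (0.98 and 1.41), of the same family as Cxcl10, were not well above background on either array. Of 33 interleukins, 10 were well above background and none was in the top class. Il16 (9.83 and 9.64), Il18 (9.50 and 9.42) and Il12a (8.92 and 8.91) read highest. Il17a read 0.95 on Empty 1 and 4.76 on Empty 2 and was well above background on 1 array.

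All 9 interferon regulatory factors and all 7 STAT factors were well above background. Stat2, which carries interferon signals, read 11.88 and 11.76, and Irf1, an interferon-induced factor, read 12.84 and 12.82. The immunoproteasome genes Psmb10 (14.36 and 14.33), Psmb9 (13.98 and 14.05) and Psmb8 (13.74 and 13.72), which interferon gamma induces, were in the top class, among 29 of 39 proteasome subunits. Klf2, a factor of lymphocyte quiescence and traffic, read 14.07 on Empty 1 and 13.20 on Empty 2. Of 19 WNT ligands, 7 were well above background, led by Wnt9a (9.07 and 9.04). Pax8 read 5.67 and 1.4 and was well above background on 1 array.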
